A study of Homo sapiens with 4 samples.

Results

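In BT549 cells, an established human triple-negative breast cancer line, 676 c-Jun peaks were found after TNFalpha that lay more than 50 kb from any c-Jun peak found without it. They were selected on the peak lists themselves. A peak was taken if it was called with TNFalpha against IgG, overlapped by at least 1 bp a peak called with TNFalpha against input, and was more than 50 kb, edge to edge, from every peak of either list without TNFalpha. The 676 distant peaks were 16.3% of the 4159 peaks called with TNFalpha against both controls, and the 4 lists held 23721 peaks in all. Since position against the other library chose them, their distance is a description and was not tested.

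The cells were serum-starved overnight. The study used 4 ChIP-seq libraries: c-Jun with TNFalpha, c-Jun without TNFalpha, normal rabbit IgG and input chromatin. IgG and input chromatin had been taken after TNFalpha treatment and served as controls for both c-Jun libraries. The treatment lasted 6 hours by the sample labels and 3 hours by the series text, and all chromatin was fixed with 1% formaldehyde for 10 minutes. Each condition had 1 c-Jun library, so no value below has a replicate check, and the read depth was not given in the sources used here.

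AP-1 is a dimeric transcription factor of the basic leucine zipper family, assembled from Jun, Fos and ATF proteins, and c-Jun is one of its transactivating members. TNFalpha, an inflammatory cytokine, activates the kinase JNK, which phosphorylates c-Jun, and in parallel the NF-kB pathway. AP-1 binds many enhancers far from gene starts. The genes named below are background from general knowledge of the hg19 gene map. No distance from a peak to a gene was computed, and no target gene was assigned. Genes are named for only some of the listed peaks and runs, so they are no measure of the kinds of genes near distant peaks.

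For 675 of the 676 peaks, the median gap to the nearest peak without TNFalpha was 175 kb (interquartile range 91.0 to 329 kb). The remaining peak lay on a contig of chromosome 7 that is not placed in the assembly, where no peak without TNFalpha was called. In 196 peaks the gap was 50 to 100 kb (29.0%, 95% Wilson interval 25.7 to 32.5%), in 177 it was 100 to 200 kb (26.2%, 23.01 to 29.6%) and in 209 it was 200 to 500 kb (30.9%, 27.5 to 34.5%). A further 71 peaks lay 500 to 1000 kb away (10.5%, 8.41 to 13.04%), and 22 lay more than 1000 kb away (3.25%, 2.16 to 4.88%). Intervals here and below cover counting error only and take each peak as independent.

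**Figure D1:**
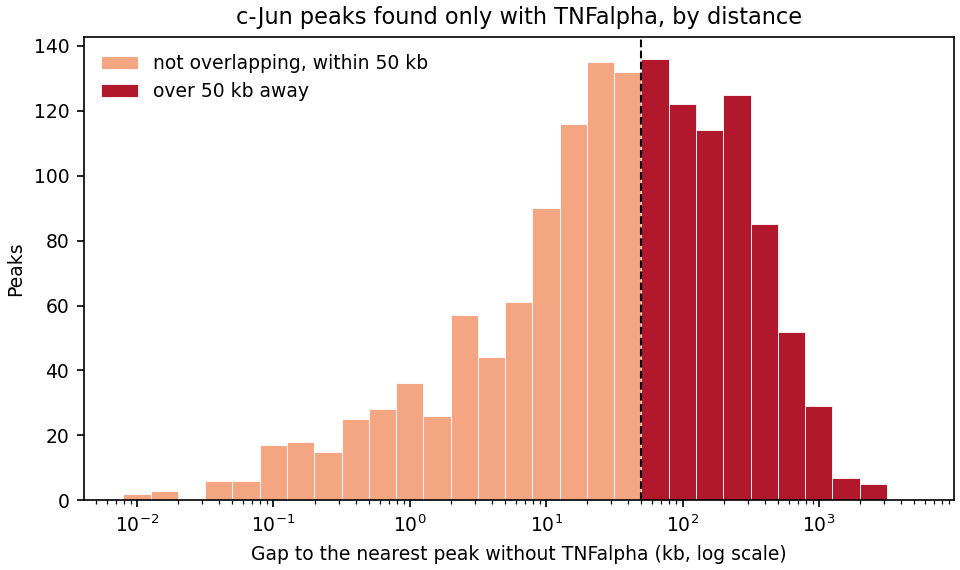
Number of c-Jun peaks found only with TNFalpha (y axis) by the gap to the nearest peak without TNFalpha in kb (x axis, log scale, bins of equal width on that scale), with the 50 kb threshold as a dashed line. The distances run through the threshold without a break, and the 675 distant peaks that have a gap (dark) reach 2949 kb.

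The threshold did not fall in an empty range of distances. Just inside it were chr3:98574719-98575075 (gap 50.02 kb, score against IgG 66.8), chr21:30568330-30568958 (50.4 kb, score 156) and chr1:199711667-199712049 (50.8 kb, score 68.1). Just outside it were chr14:96562051-96562571 (gap 49.9 kb, score 93.2), chr19:13907533-13907918 (49.9 kb, score 107.9) and chr1:186071632-186071991 (49.8 kb, score 55.3). The scores are those of the authors' peak caller, are at least 50 in each list and are ranked here only within a list. In the same order, the percentiles in the IgG-controlled list (share of the list with a lower score) were 29.1, 83.4 and 31.4 just inside. Just outside they were 55.98, 65.6 and 10.5.

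The farthest peak lay near the end of the long arm of chromosome 22, at chr22:50329722-50330046, 2949 kb from any peak without TNFalpha, with a score of 60.8. On the same chromosome chr22:21258845-21259288 lay 2728 kb away and scored 156 against IgG and 427 against input. The next were chrX:79582335-79582636 (2486 kb, score 63.6), chr11:38482013-38482301 (2211 kb, score 55.7) and chr19:53494808-53495147 (2093 kb, score 68.3). Of these 5 peaks, 1 had a score above the median of the IgG-controlled list. Across the 675 peaks, gap and score had a Spearman correlation of 0.0023, given as a description of peaks from 1 library. The median score percentile was 36.7 for gaps of 50 to 100 kb and 39.2 for gaps over 1000 kb.

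Against IgG, most distant peaks scored below the median of the list. Their median score was 74.2 (range 50.1 to 367), which corresponded to a median rank of 2743 among the 4439 peaks of that list and to the percentile 38.2 (95% interval of the median 35.6 to 42.9). Of the 676, 254 had a score above the median of the list (37.6%, 34.0 to 41.3%) and 23 in the highest 10% (3.40%, 2.28 to 5.05%). In the lowest 10% there were 81 (11.98%, 9.75 to 14.6%). Peaks with TNFalpha that did not overlap a peak without it but lay within 50 kb of one had a median percentile of 39.2 (36.4 to 42.2) and 3.67% in the highest 10% (2.58 to 5.19%). Peaks that overlapped one had a median percentile of 61.8 (59.97 to 63.4) and 14.6% in the highest 10% (13.3 to 16.0%). These are values of the list that the selection used and were not tested.

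The share of distant peaks decreased with the score. In the lowest quartile of the IgG-controlled list, 213 of 911 both-control peaks were distant (23.4%, 20.7 to 26.2%). The next quartiles held 209 of 1044 (20.02%, 17.7 to 22.6%) and 170 of 1096 (15.5%, 13.5 to 17.8%), and the highest quartile held 84 of 1108 (7.58%, 6.17 to 9.29%). Peaks that did not overlap but lay within 50 kb decreased in the same order, with 28.3, 24.6, 18.1 and 9.39% of the quartiles. How much of this follows from the score threshold of the lists without TNFalpha was not tested.

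The distant peaks were 194 to 1978 bp wide, with a median of 388 bp (95% interval 379 to 399 bp, interquartile range 328 to 496 bp). Peaks within 50 kb had a median width of 403 bp (390 to 416 bp) and overlapping peaks 456 bp (448 to 463 bp). Width followed the score, with a Spearman correlation of 0.60 across the 676 peaks, so the classes were also set side by side within score quartiles. In the lowest quartile the medians were 326 bp for distant peaks (317 to 335 bp) and 345.5 bp for overlapping peaks (337 to 354 bp). In the highest quartile they were 563.5 bp (530.0 to 615 bp) and 611 bp (597 to 625 bp). The gap of 68 bp between the overall medians of distant and overlapping peaks was thus smaller within quartiles, where it ranged from 6 to 47.5 bp.

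**Figure D2:**
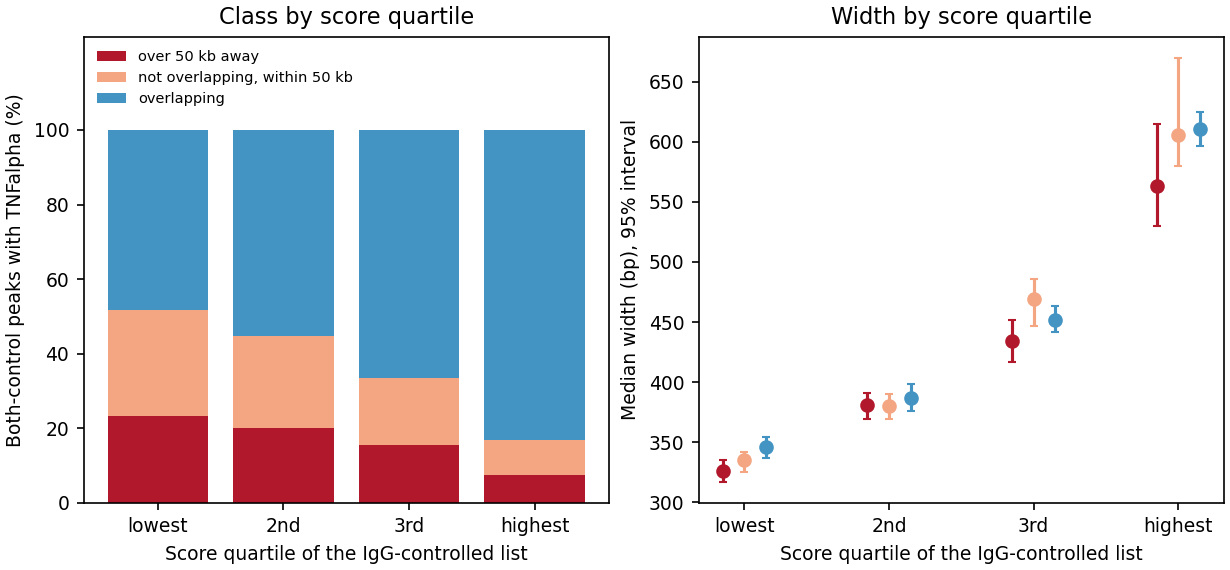
Left, share of the both-control peaks with TNFalpha that were distant, not overlapping but within 50 kb, or overlapping (y axis, %), by score quartile of the IgG-controlled list. Right, median peak width in bp with its 95% interval for the same classes and quartiles: distant peaks make up 23.4% of the lowest and 7.58% of the highest quartile, and all classes are wider at higher scores.

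The narrowest distant peak was chr9:34186353-34186546, at 194 bp, with a score of 53.1. The widest was chr20:48428012-48429989, at 1978 bp. Of the distant peaks, 6 were wider than 1000 bp (0.888%, 0.407 to 1.92%), against 11 of 817 peaks within 50 kb (1.35%, 0.753 to 2.39%) and 74 of 2666 overlapping peaks (2.78%, 2.22 to 3.47%), without regard to score. The peak on the contig of chromosome 7 was 1134 bp wide and had a score of 93.9 against IgG but 51.1 against input, rank 7814 of 8040 in the input-controlled list.

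Each distant peak matched 1 peak of the input-controlled list, as did each peak of the other classes, and its percentile was usually higher there. The median percentile was 57.3 in the input-controlled list (95% interval 54.6 to 59.1) and 38.2 in the IgG-controlled list, and 520 of 676 peaks had the higher percentile against input. The other classes had higher percentiles against input too, with medians of 58.1 against 39.2 for peaks within 50 kb and 77.4 against 61.8 for overlapping peaks. The input-controlled list is longer, at 8040 peaks against 4439, and 3881 of its peaks were not called against IgG. The scores under both controls had a Spearman correlation of 0.64 across peaks, which share the same c-Jun reads. Of the 676 peaks, 44 were in the highest 10% against input and 16 in the highest 10% under both controls, while 230 were in the lower 50% under both.

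**Figure D3:**
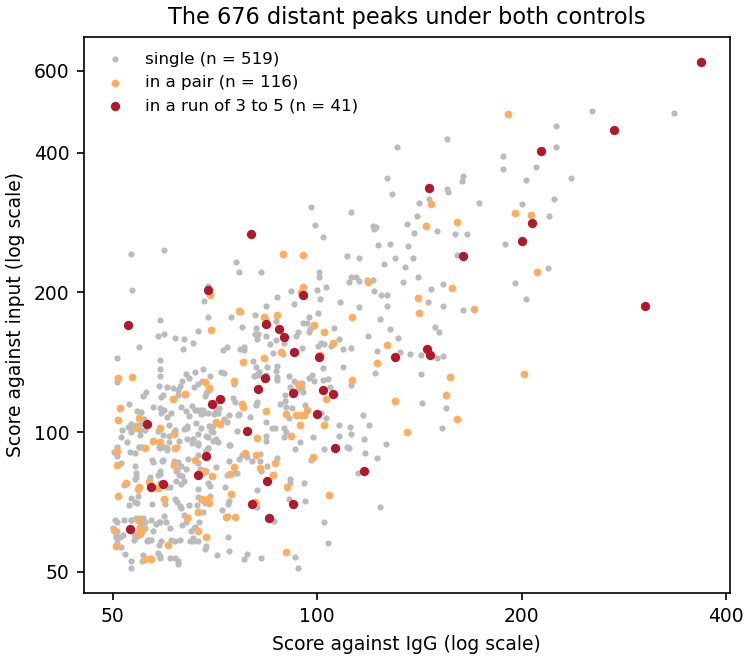
Score against input (y axis, log scale) and against IgG (x axis, log scale) for the 676 distant peaks. Colour marks whether a peak stood alone, was in a pair or was in a longer run, with gaps of at most 50 kb. The peak with the highest score under both controls, at 367 and 627, belongs to a run of 3 peaks on chromosome 6.

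The 20 highest scoring distant peaks lay on 11 chromosomes, had scores of 200.6 to 367 against IgG and were 469 to 1978 bp wide. The first was chr6:89744966-89746060, scored 367 against IgG (rank 71) and 627 against input (rank 74), 110.4 kb from the nearest peak without TNFalpha. A second peak of the 20, chr6:89744241-89744752 (score 214), lay 213 bp from it. They lie upstream of PNRC1, which encodes a nuclear receptor coactivator. The next, chr3:45592923-45593609 (score 335 against IgG, 486 against input), lay between LARS2, which encodes the mitochondrial leucyl-tRNA synthetase, and LIMD1, which encodes a LIM domain protein. It had no other distant peak within 3801 kb.

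The peak chr20:48428012-48429989 had a score of 304 against IgG (rank 135) but only 187 against input (rank 1580). It is at the start of SLC9A8, which encodes a sodium/proton exchanger. The peak chr10:14020364-14021491 (score 274 against IgG, 448 against input) lies in FRMD4A, which encodes a scaffold protein of cell polarity. The peak chr3:73768445-73769508 (score 254 against IgG, 493 against input) lies upstream of PDZRN3, which encodes a ubiquitin ligase. These 3 peaks were all over 1000 bp wide.

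On chromosome 1, the peak chr1:11796495-11797443 (score 237) is at the start of AGTRAP, which encodes a protein that binds the angiotensin II receptor. The peak chr1:231531046-231531900 (score 225 against IgG, 456 against input) lies in EGLN1, which encodes the prolyl hydroxylase that marks HIF-1alpha for degradation. The other peaks of chromosome 1 among the 20 were chr1:232278146-232278852 (score 210.2) and chr1:99922844-99923491 (score 200.6). All 4 had no other distant peak within 50 kb.

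On the remaining chromosomes, chr22:18264385-18264991 (score 219) had the largest gap of the 20, at 1402 kb, and lies between BID, which encodes a death-promoting BCL2 family protein, and MICAL3. The peak chr10:70821040-70821583 (score 211) was followed at 3.93 kb by another distant peak, with a score of 157, and lies upstream of SRGN, which encodes the secretory granule proteoglycan serglycin. The peak chr7:36698107-36698575 (score 207) lies in AOAH, which encodes an enzyme that inactivates bacterial lipopolysaccharide, and another distant peak was 112 bp away. The peak chr14:63904698-63905375 (score 203) lies in PPP2R5E, which encodes a regulatory subunit of protein phosphatase PP2A.

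The others of the 20 were chr5:55554694-55555443 (score 225), chr9:83116505-83117111 (score 223), chr2:208199089-208199965 (score 219), chr5:118733125-118733819 (score 207), chr3:27718991-27719594 (score 203) and chr5:110886247-110886787 (score 202). The last had a score of only 134 against input, rank 2592, the lowest input rank of the 20. Of the 20 peaks, 12 stood alone and the other 8 had another distant peak within 50 kb.

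Most distant peaks were isolated. Another distant peak lay within 50 kb of 157 of the 676 (23.2%, 95% Wilson interval 20.2 to 26.6%), and the other 519 stood alone among distant peaks. Counting every both-control peak with TNFalpha as a neighbour, 507 stood alone (75%, 71.6 to 78.1%). Of peaks found only with TNFalpha within 50 kb of a peak without it, 25.1% stood alone (22.2 to 28.2%), and of overlapping peaks 52.9% did (51.0 to 54.7%). The selection uses neighbours in the other library, and its part in these shares was not tested.

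Where distant peaks had a neighbour, it was often close. Within 1 kb there were 46 such peaks (6.80%, 5.14 to 8.96%), and within 10 kb there were 103 (15.2%, 12.7 to 18.1%). Chaining distant peaks with gaps of at most 50 kb gave 58 pairs, 8 runs of 3, 3 runs of 4 and 1 run of 5. In the pairs the spacing ranged from 6 bp to 49.8 kb, with a median of 4.62 kb, and 17 of the 58 pairs were within 1 kb. Whether such close pairs are 1 site split by the peak caller was not tested. When peaks within 1 kb were joined, 653 sites were left, of which 17.9% had a neighbour within 50 kb. The runs are counted without this joining, and some held peaks within 1 kb of each other. The smallest spacing was 243 bp in the run from chr10:14020364 and 154 bp in that from chr11:61739058. In the runs from chr6:89744241, chr21:34180307, chr7:30208800 and chr5:118733125 it was 213, 490, 598 and 928 bp. Joining would leave fewer sites in each of these runs.

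Peaks in runs had higher scores than lone peaks. The median percentile in the IgG-controlled list was 36.2 for the 519 lone peaks (95% interval 32.1 to 38.97), 47.4 for the 157 peaks in pairs and runs (41.2 to 52.4) and 54.7 for the 41 peaks in runs of 3 or more (46.2 to 64.6). The median widths were 379 bp (369 to 389 bp), 423 bp (392 to 447 bp) and 495 bp (411 to 545 bp). The intervals take neighbouring peaks as independent, and no test was made. These groups were formed without joining peaks within 1 kb. Of the 41 peaks in runs, 6 were in the highest 10% of the list (14.6%, 6.88 to 28.4%), against 13 of the 519 lone peaks (2.50%, 1.47 to 4.24%).

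The run of 5 spanned 32.2 kb on chromosome 10, from 14020364 to 14052611, within FRMD4A. Its first peak was the strongest, with a score of 274, and the following peaks had scores of 130.1, 84.1, 70.0 and 78.7. Against input the scores were 448, 145, 171, 115 and 100.5 in the same order. The first 3 peaks lay within 10 kb of the run's start and the last 2 were 243 bp apart at its other end. A sixth distant peak, chr10:13907889-13908575 (score 150.02), lay in the same stretch of 408 kb between successive peaks without TNFalpha, which held no other both-control peak.

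**Figure D4:**
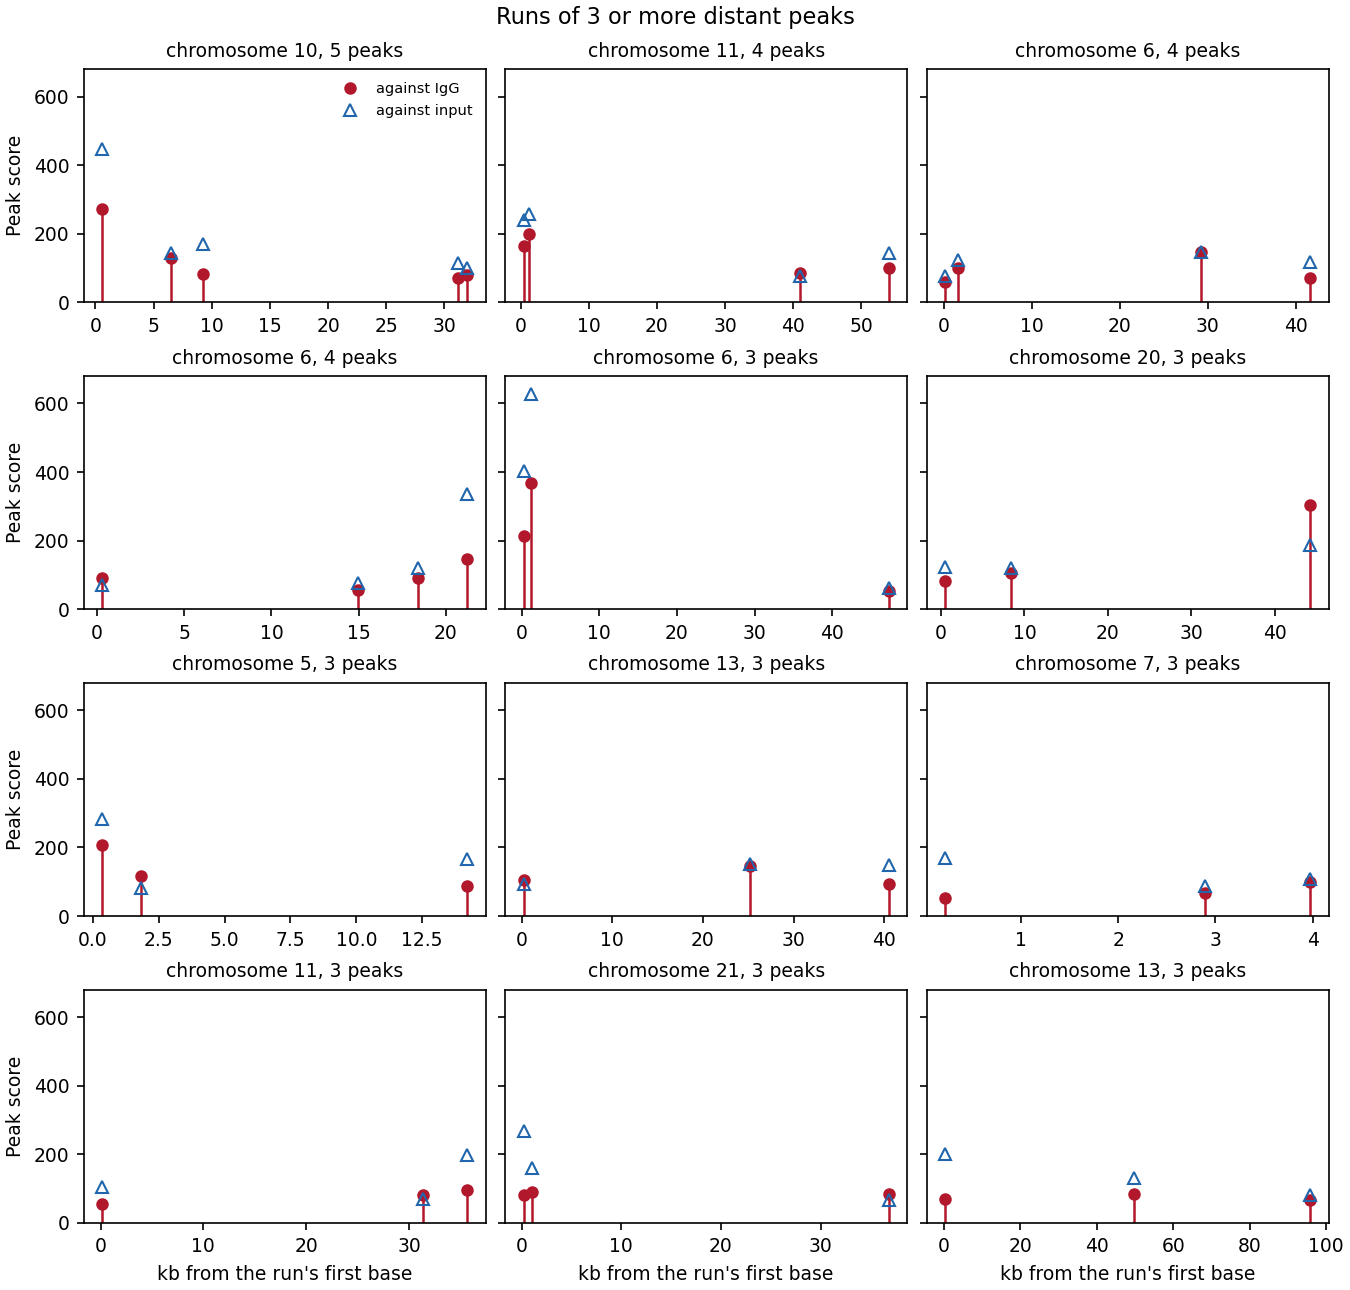
The 12 runs of 3 or more distant peaks, each in its own panel, with peak position as distance in kb from the first base of the run (x axis) and peak score (y axis) against IgG (red circles on stems) and against input (blue triangles). The run of 5 on chromosome 10 and the run of 3 on chromosome 6 have their highest score at or near the start, at 274 and 367 against IgG.

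Among the runs of 4, the one on chromosome 6 from 137540335 to 137561849 lay 533 to 554 kb from any peak without TNFalpha, beside IFNGR1, which encodes the ligand-binding chain of the interferon gamma receptor. Its 4 peaks had scores of 92.2, 56.8, 92.2 and 146 against IgG. The last peak, chr6:137561282-137561849, stood out against input, with a score of 336 and rank 475, against scores of 70.0 to 121 for the other 3.

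This run belonged to the stretch without any peak in the absence of TNFalpha that held the most distant peaks. The stretch, picked out after the values were seen, ran for 1248 kb between peaks without TNFalpha that ended at 137006922 and began at 138254827, and it held 9 distant peaks and 0 other both-control peaks. Besides the run, it held chr6:137433168-137433459 (score 64.9), the pair chr6:138049855-138050445 (score 141) and chr6:138059261-138059699 (score 93.8), and the pair chr6:138187885-138188596 (score 69.8) and chr6:138194489-138194913 (score 66.8). The last pair is at TNFAIP3, which encodes A20, the ubiquitin-editing enzyme that limits NF-kB signalling. The first peak of that pair had a score of 166 against input and the second 61.2. All 9 scores against IgG were between 56.8 and 146. The stretch held the most distant peaks but not the most for its length. It had 7.21 per Mb, against 14.7 per Mb in the stretch of 408 kb on chromosome 10.

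The run of 4 on chromosome 11 from 61739058 to 61793292 lies close to FTH1, which encodes the ferritin heavy chain, the iron-storing ferroxidase. Its first peaks, chr11:61739058-61739892 and chr11:61740047-61740558, were 154 bp apart and had scores of 164 and 201 against IgG and 240 and 258 against input. The other 2 peaks had scores of 84.5 and 100.5 and lay 40.8 and 53.9 kb from the start of the run. Within its 54.2 kb there were also 2 peaks called with TNFalpha against input alone, with scores up to 94.5.

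The run of 4 on chromosome 6 from 16684011 to 16725783 lies in ATXN1, which encodes the transcriptional regulator ataxin-1. Its scores were 59.2, 102, 147 and 72.0 against IgG and 77.4, 123, 147 and 118 against input. The third peak, chr6:16713018-16713448, was thus the strongest under both controls. All 4 were 312 to 431 bp wide.

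Of the 8 runs of 3, the one with the strongest peak was that on chromosome 6 from 89744241 to 89791780. The third peak of this run, chr6:89791271-89791780, is at PNRC1, 45.2 kb beyond the strong pair, and had a score of 52.9, close to the minimum of the list. The run on chromosome 20 from 48384724 to 48429989 ended with the 1978 bp peak at SLC9A8, after peaks with scores of 81.9 and 106. The run on chromosome 5 from 118733125 to 118747713 had scores of 207, 117 and 87.8 and lies at the end of TNFAIP8, a TNFalpha-induced gene that encodes an inhibitor of cell death.

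On chromosome 13 the run from 111024205 to 111064921 had scores of 106, 145 and 92.5 and lies in COL4A2, which encodes a collagen chain of the basement membrane. The run on chromosome 11 from 102722120 to 102758068 lies among the matrix metalloproteinase genes, around MMP3 (stromelysin-1) and MMP12 (macrophage elastase), and was 1058 to 1094 kb from any peak without TNFalpha. Its scores were lower, at 56.1, 80.1 and 95.3 against IgG, with 104, 70.1 and 198 against input. The strongest of the 3 was chr11:102757512-102758068.

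The last 3 runs had no peak with a score above 99.9 against IgG. They were chr7:30208800-30213012, with all 3 peaks within 4.21 kb, chr21:34180307-34217334 and chr13:45294050-45390121. The peak chr21:34180307-34180691 had a score of 79.9 against IgG but 267 against input, rank 811.

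The distant peaks were spread over the 22 autosomes and chromosome X. Chromosome Y held 0 distant peaks among 2 both-control peaks with TNFalpha. It held 180 peaks without TNFalpha in both lists together and is left out of the shares below. Chromosome 1 held 63, chromosome 5 held 55, and chromosomes 6 and 10 held 54 each, while chromosome 18 held 6. As a share of the both-control peaks with TNFalpha on the same chromosome, they ranged from 7.50% on chromosome 18 (6 of 80, 95% Wilson interval 3.48 to 15.4%) to 41.9% on chromosome 22 (18 of 43, 28.4 to 56.7%), with a median of 16.4% over 23 chromosomes. Chromosome 19 had 32.7% (17 of 52, 21.5 to 46.2%) and chromosome 15 had 30.0% (27 of 90, 21.5 to 40.1%). Chromosome 8, with 38 of 350, had 10.9% (8.01 to 14.6%).

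**Figure D5:**
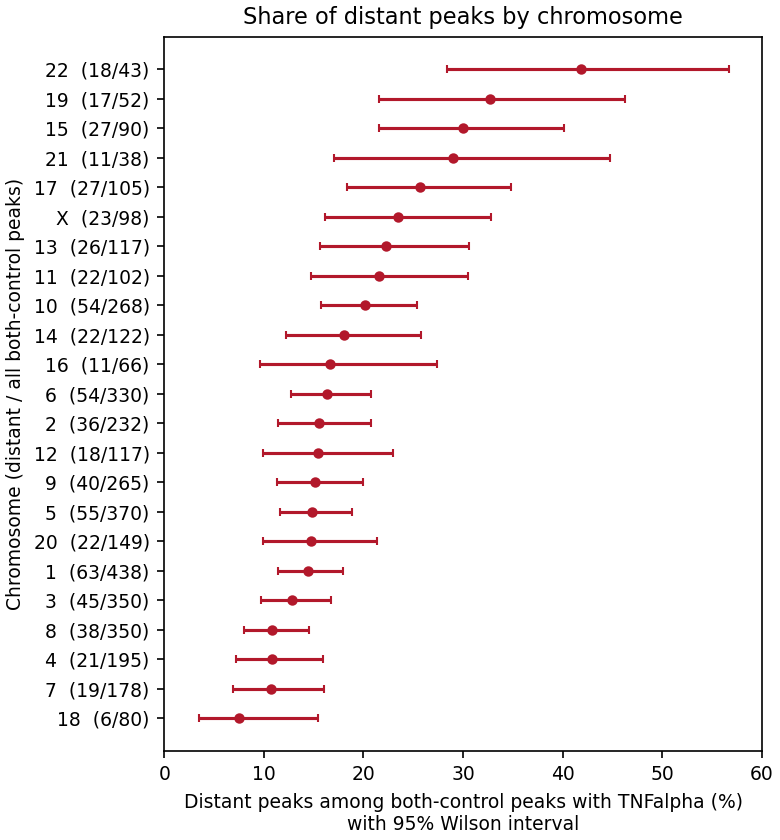
Share of distant peaks among the both-control peaks with TNFalpha (x axis, %) for chromosomes 1 to 22 and X (y axis, with both numbers), with 95% Wilson intervals. Chromosome 22 has the highest share at 41.9% and chromosome 18 the lowest at 7.50%, and the intervals of 14 of the 23 chromosomes hold the median of 16.4%.

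Chromosomes 22 and 19, with the highest shares, held few peaks without TNFalpha. Chromosome 22 held 74 in both lists together and chromosome 19 held 111, against 1124 on chromosome 1. Chromosome 18, with the lowest share of the 23, was also sparse, with 183. Over the 23 chromosomes, which leave out chromosome Y, the share and the number of peaks without TNFalpha had a Spearman correlation of -0.64. This is a description in which all points share the same libraries and chromosome length was not taken into account. Whether the number of such peaks bears on the share was not tested. In the same way, without a test, 23 of the 54 distant peaks of chromosome 6 and 14 of the 27 of chromosome 17 had another within 50 kb, against 0 of 6 on chromosome 18 and 4 of 45 on chromosome 3.

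Apart from the peak on the contig, the distant peaks fell into 510 stretches of chromosome free of peaks without TNFalpha, and 396 of these held 1 distant peak. In the 506 stretches bounded by such peaks on both sides, the median length was 700.1 kb. Stretch length and number of distant peaks had a Spearman correlation of 0.095 across them. The correlation covers only stretches that held a distant peak, so it does not describe which stretches held one. On chromosomes 1 to 22 and X, 4350 stretches between such peaks were over 100 kb, and 506 of these held a distant peak. Stretches over 1000 kb numbered 740, and 167 of these held a distant peak.

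The same rule turned around gave 315 of the 3086 both-control peaks without TNFalpha that lay more than 50 kb from every peak with TNFalpha, or 10.2%. The lists with TNFalpha are the longer. When they were shortened to the lengths of the lists without TNFalpha by leaving out the lowest scores, 462 of 3236 both-control peaks with TNFalpha were distant (14.3%, 13.1 to 15.5%), against 339 of 3086 in the other direction (10.99%, 9.93 to 12.1%). The part of read depth was not tested. The number of distant peaks depended on what counted as a peak without TNFalpha. When only those called against both controls counted, 1361 of the 4159 both-control peaks with TNFalpha were distant. The other direction is not given for this choice.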

How the data were processed

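Per the submitters' processing notes, CASAVA 1.8 and Bowtie 0.12.9 were used, and the build was hg19. The deposited peak lists, 2 for each c-Jun library, give a start, an end and a score per peak; the authors made the score. Its scale and the caller's settings were not given in the sources used here, and the peak names begin with MACS. Per the labels, each list was called on 1 library. Starts were raised by 1, so coordinates are 1-based.

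Distances are the bases between peak edges. Ranks and percentiles (share of the list with a lower score) stay within a list. Intervals are 95% Wilson intervals for shares and binomial order-statistic intervals for medians. No test was made. Peaks named are the 20 with the highest score, runs of 3 or more, those next to the threshold, and the extremes of distance and width; others were chosen after their values were seen. The peaks and lists were chosen with earlier results of these data known. Genome sequence and gene positions of hg19 were not used here, so motifs, peak sequences and gene lists were not analysed. Gene symbols were checked against RefSeq (GRCh38.p14) for name and chromosome only.

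Python 3.11.15, numpy 2.4.6, pandas 2.3.3, scipy 1.17.1 and matplotlib 3.10.9 were used. The code of the selection was checked on simulated peaks placed by the same rule, where 200 of 200 distant peaks were recovered. This checks the code only and is no recovery rate for real sites. On the real lists, bedtools 2.31.1 gave the same 676 peaks. Alternatives changed the distance, the overlap, the lists used and the joining of close peaks.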

Additional observations from a re-analysis of the deposited data

How the results depend on the processing

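No paired analysis was possible because the c-Jun libraries numbered 1 per condition, and no library could be left out. The main values were 676 peaks, a median width of 388 bp, a median percentile of 38.2 and 23.2% with a neighbour within 50 kb. All 4 stayed within 1.5 times (the count) or their 95% interval with a distance of 20 kb (942 peaks) or 100 kb (480 peaks) and with reciprocal overlap of 50% (676 peaks). These sets are nested with the main one. The set at 20 kb holds all 676 peaks, that at 100 kb is part of them, and reciprocal overlap gave the same 676. Their likeness is thus no independent check. With the IgG-controlled list alone the percentile was 34.5. The higher scoring 50% of that list gave 254 peaks, 464 bp, 67.6 and 14.6%, as a filter on score requires for the count and the percentile. Distance to both-control peaks without TNFalpha alone gave 1361 peaks and 30.3%. The remaining alternatives were added after seeing the data. With the lists with TNFalpha shortened to the length of those without, 462 peaks were left and the width was 426 bp. Their percentile, still taken in the full list, was 52.9. Leaving out the lowest scores raises such a percentile by itself. With peaks within 1 kb joined, the share with a neighbour was 17.9%. Chromosomes 1 to 22 and X alone moved none of the 4. The planned shares inside genes, near gene starts and with an AP-1 motif were not run, as gene positions and sequence of hg19 were not used here. Read depth is unknown, so a site missing from a list cannot be called unbound.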
